A study of Mus musculus with 2 samples.

Results

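A set of 10 interferon-inducible GTPases was followed across the cells of the mouse uterus. They were Irgm1, Irgm2, Igtp, Iigp1, Tgtp1 and Tgtp2 of the immunity-related GTPases (IRG), and Gbp2, Gbp3, Gbp5 and Gbp7 of the guanylate-binding proteins (GBP). All 10 symbols were found among the 32285 genes listed in both libraries. The genes were picked for their levels in control and cKO cells of these same libraries, so their differences between the libraries are a description and carry no test.

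Uteri of female mice aged 6 months were digested to single cells and profiled by droplet single-cell RNA sequencing, which counts unique molecular identifiers (UMIs) from the 3-prime ends of transcripts. The control group had floxed Prickle1 alleles (Prickle1 f/f). The conditional knockout group (cKO) had the same floxed alleles and a Cre (Ltf-cre in the title, Ltf-iCre in the design) driven by Ltf, the lactoferrin gene, which is transcribed in the uterine epithelium. The cells of 3 mice were pooled for the single library of a group. No replicate error can be given, and genotype, animals, dissociation and library cannot be told apart. A separate genotype label calls both samples C57BL/6J wild-type, against their titles. Prickle1 itself had 15 UMIs in epithelial cells of control (0.865 CPM, counts scaled to 1e6 UMIs of the class) and 16 in cKO (3.93 CPM). Against the label, it was higher in the cKO library with intervals apart in epithelial cells, in stromal cells (3.84 and 9.13 CPM), in lymphoid cells (5.39 and 30.2 CPM) and over all cells (2.65 and 8.24 CPM), and the intervals overlapped in muscle, macrophage and dendritic cells. The floxed exons are not given in the sources used here, and 3-prime UMIs from outside a deleted exon check nothing. Control and cKO below therefore stand for the libraries labelled so.

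Interferons bind receptors on the cell surface and act through JAK kinases and STAT proteins, which switch on a common set of defence genes. Interferon gamma acts mainly on genes with gamma-activated sites, while type I interferons act mainly on genes with interferon-stimulated response elements. The IRG and GBP proteins are targets of these pathways and guard cells against bacteria and parasites that live in vacuoles. Irgm1, Irgm2 and Igtp (also called Irgm3) are regulatory IRGs that sit on the membranes of the cell itself. Iigp1, Tgtp1 and Tgtp2 are effector IRGs that load onto the vacuole of a pathogen, and the GBPs gather there too and feed the inflammasome pathway.

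The promoters of the members are shown first, and a link between their letters and the levels below was not tested. On GRCm38 the GBP members form a cluster on chromosome 3, with Gbp5 (ENSMUSG00000105504) at chr3:142493978-142522344, Gbp7 (ENSMUSG00000040253) at chr3:142530342-142550149, Gbp3 (ENSMUSG00000028268) at chr3:142560026-142573209 and Gbp2 (ENSMUSG00000028270) at chr3:142620602-142638008, all on the plus strand. Irgm1 (ENSMUSG00000046879, chr11:48861968-48871683), Tgtp1 (ENSMUSG00000078922, chr11:48985327-48994172) and Tgtp2 (ENSMUSG00000078921, chr11:49057194-49064206) lie on the minus strand of chromosome 11. Igtp (ENSMUSG00000078853, chr11:58199556-58207591) and Irgm2 (ENSMUSG00000069874, chr11:58199618-58222782) lie on the plus strand of the same chromosome. The motifs were searched on both strands of the 250 bases before each start in the RefSeq promoter table (GRCm38.p6). They were the core of the interferon-stimulated response element, GAAA and GAAA with any 2 bases between, and the gamma-activated site, TTCNNNGAA. A match of either may overlap the other or itself. The table held 9 of the 10 members, Iigp1 being the exception. The 9 members had 10 windows, and a further window of Gbp3 held neither motif. Members are counted by gene and the background by window. All 9 had the response element core in a window, against 2.98% of 32851 windows. TTCNNNGAA was found for 6 of the 9, namely Igtp, Irgm2, Tgtp1, Tgtp2, Gbp5 and Gbp7, against 7.02% of windows. A match is a description of letters and not a bound site. The 120 bases before the RefSeq start are printed for 7 members, the regulators, the Tgtp pair and 2 GBPs, 5′ to 3′ on the strand of the gene. Capitals mark the matches, and the response elements of Gbp2 and Gbp7 lie on the other strand and read as TTTC, 2 bases, TTTC. The windows are chr11:48871421-48871540 (minus) for Irgm1, chr11:58199436-58199555 (plus) for Igtp, chr11:58214857-58214976 (plus) for Irgm2, chr11:48992247-48992366 (minus) for Tgtp1, chr11:49064213-49064332 (minus) for Tgtp2, chr3:142620543-142620662 (plus) for Gbp2 and chr3:142530216-142530335 (plus) for Gbp7.
Irgm1: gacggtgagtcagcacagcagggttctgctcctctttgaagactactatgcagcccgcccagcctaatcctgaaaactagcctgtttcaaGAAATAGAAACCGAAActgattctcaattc
Igtp: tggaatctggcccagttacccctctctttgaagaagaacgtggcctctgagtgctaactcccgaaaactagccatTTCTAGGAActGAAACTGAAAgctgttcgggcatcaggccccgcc
Irgm2: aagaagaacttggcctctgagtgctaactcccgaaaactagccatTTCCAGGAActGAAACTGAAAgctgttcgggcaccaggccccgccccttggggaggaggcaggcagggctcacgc
Tgtp1: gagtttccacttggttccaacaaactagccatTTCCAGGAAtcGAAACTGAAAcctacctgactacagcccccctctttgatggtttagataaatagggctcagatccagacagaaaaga
Tgtp2: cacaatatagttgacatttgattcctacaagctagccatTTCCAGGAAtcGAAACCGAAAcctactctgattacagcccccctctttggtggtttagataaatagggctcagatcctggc
Gbp2: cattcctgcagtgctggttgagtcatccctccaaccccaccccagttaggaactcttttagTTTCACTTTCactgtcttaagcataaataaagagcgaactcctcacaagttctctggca
Gbp7: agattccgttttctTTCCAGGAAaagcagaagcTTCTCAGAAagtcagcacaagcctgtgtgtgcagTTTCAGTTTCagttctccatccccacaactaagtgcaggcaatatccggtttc

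In Igtp, Irgm2, Tgtp1 and Tgtp2 the gamma-activated site began 11 bases before the response element, so these 4 promoters share one layout. Their response elements lay on the strand of the gene, while TTCNNNGAA reads the same on both strands. The response element began 34 bases before the start in Igtp, 64 in Irgm2, 77 in Tgtp1 and 70 in Tgtp2. Irgm1 had 2 overlapping response elements, beginning 30 and 24 bases before its start, and no gamma-activated site in its window. Gbp7 had 2 gamma-activated sites, beginning 106 and 87 bases before the start, and a response element at 53. Gbp2 had a response element at 59 bases and no gamma-activated site in the window.

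Cells were barcodes with at least 500 genes and at most 20% mitochondrial UMIs, 3653 in control and 4950 in cKO. Their median depth was 4650 and 5944 UMIs, and 5 cell barcodes occurred in both libraries. Classes were the cells with a UMI of exactly 1 gate: Epcam for epithelial, Pdgfra for stromal, Actg2 for muscle, C1qa for macrophage, Flt3 for dendritic, and Cd3e or Ncr1 for lymphoid cells. The classes held 961, 623, 289, 228, 42 and 155 cells in control and 135, 1464, 535, 110, 134 and 427 in cKO, in that order. In both libraries 92.7% or more of the stromal, muscle, macrophage and dendritic cells had at least 2 further markers of their list. The share was 69.7% and 74.5% for lymphoid cells, and 97.2% and 61.5% for epithelial cells. The cKO epithelial cells also held the 7 stromal markers at 3071 CPM summed, against 270.8 CPM in control, with Pdgfra at 0 by the gate. Their own 7 markers stood at 8340 CPM in cKO and 11610 in control. If all stromal marker UMIs there were cell-free RNA, such RNA would make up 15.9% of the control and 74.85% of the cKO epithelial UMIs, so each cKO epithelial level below holds an uncertain share from other cells. These cells also had the muscle markers at 35.6 and 461.4 CPM in control and cKO, the mesothelial ones at 22.95 and 358.8, and the lymphatic endothelial ones at 8.19 and 134. In the other classes the lists of foreign markers that differed by more than 3-fold and reached 100 CPM in a library were these. The 4 erythroid markers summed to 10.6 CPM in control and 799.7 in cKO macrophages, to 7.82 and 614.7 CPM in dendritic cells, and to 76.3 and 1593 CPM in muscle cells. The 4 lymphatic endothelial markers summed to 170.5 and 23.4 CPM in stromal cells, 104 and 30.7 in macrophages, 1.96 and 199.6 in dendritic cells, and 16.4 and 394.8 in muscle cells. The 4 mast cell markers summed to 7.42 and 307.8 CPM in macrophages, and the 7 epithelial markers to 211 and 20.7 CPM in muscle cells. In lymphoid cells the 9 dendritic markers, which include MHC class II genes, summed to 114.5 and 992.5 CPM, with Flt3 at 0 by the gate, and the 7 stromal markers to 57.9 and 263.8 CPM. The dendritic markers also stood at 474.3 and 994.9 CPM in muscle cells. The part of these markers in the ratios was not tested.

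The summed level of the 10 members was lower in cKO in each of the 6 classes. In control it was highest in dendritic cells (2127 CPM, 95% interval 2002 to 2257) and macrophages (1953, 1891 to 2017), whose intervals overlapped. Lymphoid cells followed at 984, epithelial cells at 357, stromal cells at 239 and muscle cells at 214, the last 2 overlapping. In cKO the order was macrophages at 905, lymphoid cells at 355, dendritic cells at 204, epithelial cells at 134, muscle at 104 and stromal cells at 57.8, each apart from the next. Dendritic cells thus stood beside macrophages in control and below macrophages and lymphoid cells in cKO. Which of the 2 stood first in control is not settled, since 1 of the 42 dendritic cells held 191 of the 1088 member UMIs. Without the cell with the most member UMIs, control GBPs and IRGs stood at 1316 and 500.2 CPM in dendritic cells. In macrophages they then stood at 609.6 and 1264 CPM, which puts macrophages first. All intervals in the text are 95% counting intervals, exact Poisson for levels and exact conditional for ratios, and say nothing of the spread between mice.

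**Figure D1:**
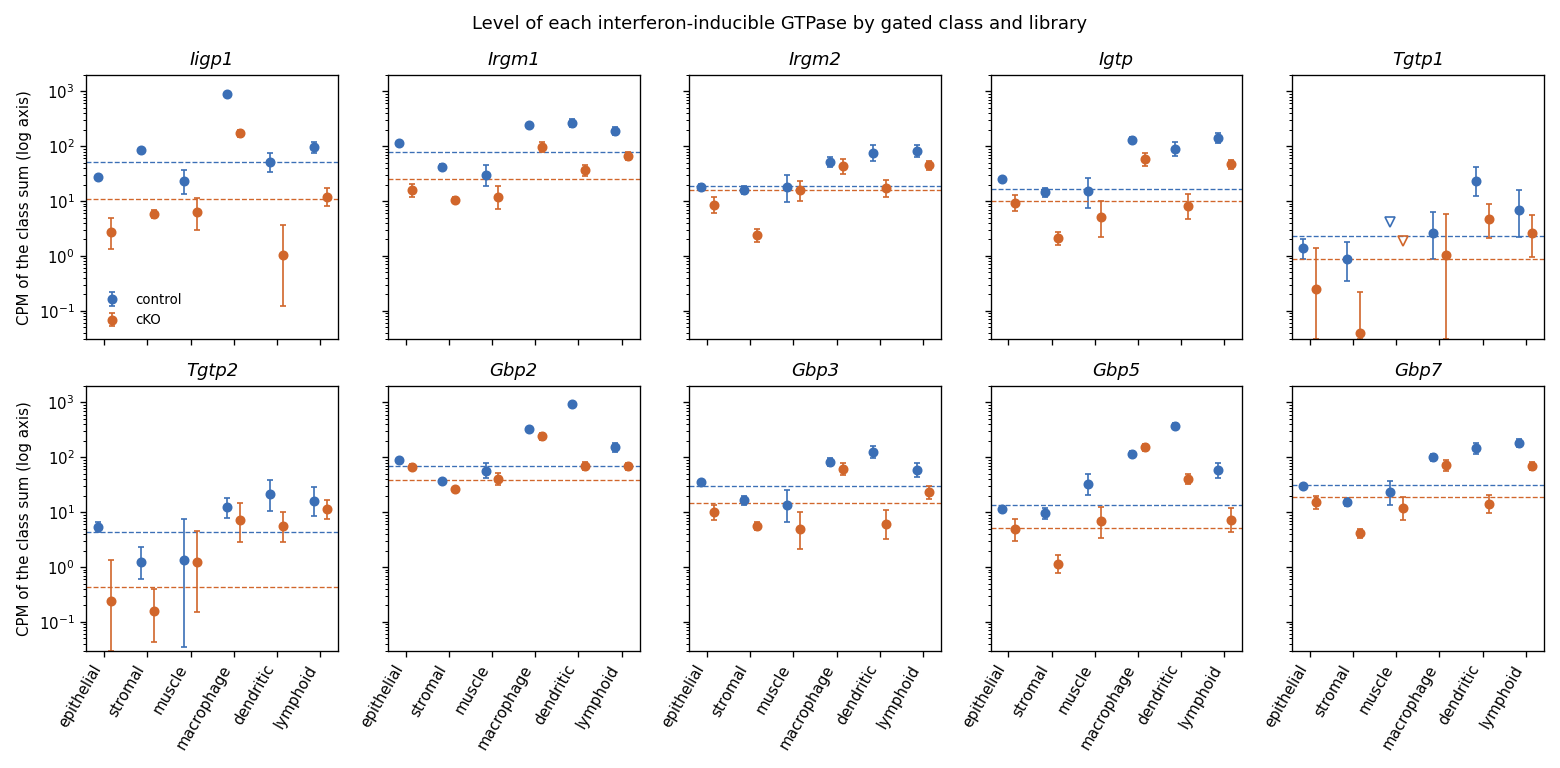
Level of each member in CPM (log axis) in the 6 gated classes, control in blue and cKO in orange, with 95% Poisson intervals. Dashed lines give the level in cell-free barcodes of each library, and open triangles the limit that 0 UMIs allow. Iigp1 stands highest in macrophages in both libraries, and Gbp2 in dendritic cells in control.

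The size of the difference varied between classes. The sum was 10.4-fold lower in cKO dendritic cells (interval 9.28 to 11.7), 4.14-fold lower in stromal cells (3.86 to 4.43), and 2.77-fold lower in lymphoid cells (2.51 to 3.07). It was 2.66-fold lower in epithelial cells (2.44 to 2.91), 2.16-fold lower in macrophages (2.01 to 2.33), and 2.05-fold lower in muscle cells (1.64 to 2.57). The epithelial log2 difference of -1.41 was -0.73 with cells weighted equally and -2.004 with TMM scaling. The muscle difference of -1.04 was -2.20 with every cell that had an Actg2 UMI, -2.13 with at least 2 such UMIs and -0.55 without the cell with the most member UMIs in each library. The order of these classes by size therefore depends on the processing. In barcodes with at most 100 UMIs, taken as cell-free RNA, the members stood at 314 CPM in control and 140.5 CPM in cKO. Stromal and muscle sums were below that level in both libraries, and the cKO epithelial sum overlapped it. In macrophages, dendritic and lymphoid cells of control, and in macrophages of cKO, 9 of the 10 members were above their own cell-free level with intervals apart. In cKO stromal cells none was above it and 8 were below. In both libraries each class was split at a common median depth, and the sum was lower in cKO among the shallow and the deep cells of all 6 classes, the smallest difference being -0.50 on the log2 scale in shallow epithelial cells.

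Counted gene by gene, most measured members were more than 2-fold lower in cKO. Genes with at least 20 UMIs over both libraries were measured. In dendritic cells 10 of 10 members were past 2-fold lower, where 5.24% of all 7684 measured genes were lower and 18.0% higher. In epithelial cells the count was 8 of 10 (9.44% of all genes lower, 29.7% higher). In stromal cells it was 7 of 8 (6.88% lower, 5.97% higher), and in lymphoid cells 7 of 9 (3.17% lower, 9.17% higher). Macrophages had 3 of 9 (4.63% lower, 10.6% higher) and muscle cells 3 of 6 (3.63% lower, 8.43% higher). No member was past 2-fold higher in any class. The members were picked on these levels, so nothing is read from the counts against the background. The median log2 difference of the measured members was -3.28 in dendritic, -2.39 in stromal, -1.63 in epithelial, -1.39 in lymphoid, -1.14 in muscle and -0.48 in macrophage cells. The median over all measured genes was 0.30, -0.02, 0.45, 0.16, 0.12 and 0.18 in the same order, so relative to it the members stood lower still in all classes but the stromal one.

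**Figure D2:**
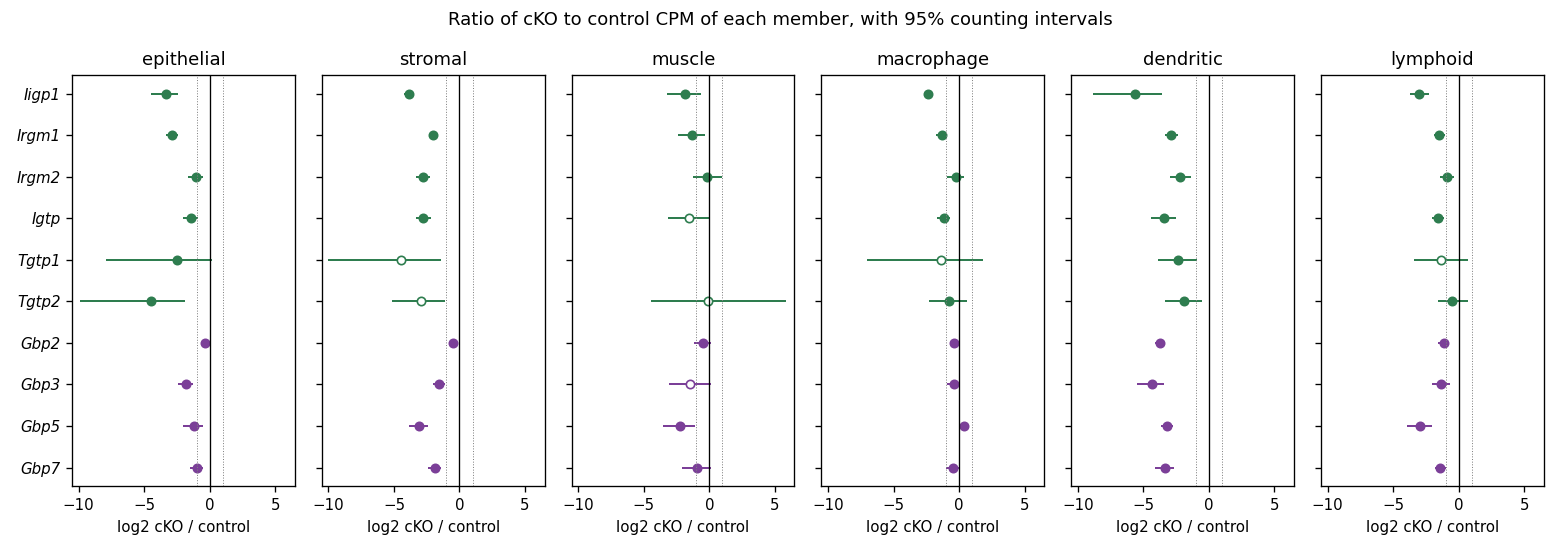
Log2 ratio of cKO over control CPM for each member (green for IRG, purple for GBP) in each class, with 95% counting intervals. Filled points have at least 20 UMIs, open points fewer, and dotted lines mark 2-fold. The points of dendritic cells all lie left of the 2-fold line, and Gbp5 in macrophages is the one measured point right of 0.

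Among the regulatory IRGs, Irgm1, which is needed for resistance to intracellular bacteria, was lower in every class of cKO. Its level was 113.7 CPM in control and 15.7 in cKO epithelial cells, 7.24-fold lower (5.64 to 9.43). In dendritic cells it was 266 and 36.5 CPM, 7.28-fold lower, and in stromal cells 42.5 and 10.5 CPM, 4.06-fold lower. In lymphoid cells it was 188.5 and 67.2 CPM, in macrophages 244 and 98.2 CPM, and in muscle cells 29.98 and 11.9 CPM, between 2.49-fold and 2.80-fold lower. The epithelial log2 difference of -2.86 ran from -3.45, in the 83 cKO cells with 2 further markers against 934 of control, to -1.70 with cells weighted equally, and was -1.97 after thinning each cell to 1000 UMIs (116.4 and 29.6 CPM). In dendritic cells thinning gave -3.58, and in muscle cells the alternatives ran from -2.98 to -0.70. The order of the classes for this gene therefore depends on the processing.

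Igtp, a regulator that keeps effector IRGs in their inactive form, stood at 141 CPM in lymphoid cells of control and 47.4 in cKO. It stood at 130.5 and 58.3 CPM in macrophages, at 89.9 and 8.23 CPM in dendritic cells, and at 25.3 and 9.33 CPM in epithelial cells, where the log2 difference of -1.44 turned to 0.0841 after thinning to 1000 UMIs. In stromal cells it was 14.4 CPM in control and 2.13 in cKO, 6.76-fold lower (4.85 to 9.51). The dendritic difference was 10.9-fold (6.07 to 20.7), -3.45 on the log2 scale, but thinning left 2 UMIs in each library there and gave -1.67 (47.6 and 14.9 CPM). In lymphoid cells thinning moved the log2 difference from -1.58 to -2.34. Muscle cells had 11 and 8 UMIs of Igtp, under the minimum of 20.

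Irgm2, the remaining regulator, was lower in stromal, dendritic and lymphoid cells of cKO, and its macrophage and muscle values were less certain. In macrophages it had 51.4 CPM in control and 43.0 in cKO, a log2 difference of -0.26 (-0.82 to 0.28), and in muscle cells 17.7 and 15.7 CPM, a difference of -0.18 (-1.20 to 0.91). Both intervals spanned 0, but the alternatives reached -1.95 in macrophages, after thinning (71.1 and 18.4 CPM), and ran from -1.28 to 0.54 in muscle cells. Stromal cells had 16.1 and 2.36 CPM, 6.82-fold lower in cKO, and dendritic cells 76.2 and 17.0 CPM, 4.49-fold lower. Lymphoid cells had 82.1 and 44.8 CPM, a log2 difference of -0.87 that thinning moved to -1.65. Epithelial cells had 17.99 and 8.59 CPM, a log2 difference of -1.07 that ran from -1.98 with 2 further markers to 0.23 with cells weighted equally. In the gene models used here Irgm2 and Igtp overlap on the same strand over 7974 bases, so reads there could be given to either, although the ends of their transcripts share no 50-base stretch.

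Iigp1, an effector that coats the vacuole of Toxoplasma and Chlamydia, had its highest level in macrophages. The level there was 894 CPM in control and 171.8 in cKO, 5.21-fold lower (4.44 to 6.14). The next class, lymphoid cells, had 95.6 and 12.1 CPM. Stromal cells had 86.2 CPM in control and 5.83 in cKO, which was 14.8-fold lower (12.4 to 17.8). Epithelial cells had 27.6 and 2.70 CPM, 10.2-fold lower, and muscle cells 23.2 and 6.28 CPM, 3.69-fold lower. Dendritic cells had 26 UMIs (50.8 CPM) in control and 2 UMIs (1.03 CPM) in cKO, with 16 of the 26 in 1 cell. Without the cell with the most Iigp1 UMIs in each library the dendritic log2 difference was -5.27 in place of -5.63, but thinning left 1 UMI in each library and gave -1.67 (23.8 and 7.46 CPM), so its size is not settled. Thinning also gave -1.88 in epithelial cells in place of -3.36 (-4.07 without the cell with the most Iigp1 UMIs). The lymphoid difference of -2.99 was -1.60 with at least 2 gate UMIs, and the muscle difference of -1.88 ran from -5.09 with every cell that had an Actg2 UMI to -0.39 after thinning. The macrophage difference was -2.85 without such cells in place of -2.38, since 1 cell held 58 of the 168 cKO UMIs.

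Tgtp1 and Tgtp2, also effectors, are near-identical neighbours whose UMIs cannot be split safely. Of the 50-base stretches in the last 500 bases of their transcripts, 80.8% of those of Tgtp1 and 100% of those of Tgtp2 occurred in another gene, so reads there fit both. Both also lie within Olfr56 on the opposite strand, and Tgtp1 overlaps Gm12185 over 6900 bases. Summed, they had 119 UMIs (6.86 CPM) in control and 2 UMIs (0.491 CPM) in cKO epithelial cells. Dendritic cells had 45.0 CPM in control and 10.3 in cKO, 4.37-fold lower (2.30 to 8.39), and 1 cKO cell held 11 of the 20 UMIs. Without the cell with the most Tgtp2 UMIs in each library the dendritic log2 difference of Tgtp2 alone was -3.58 in place of -1.93. Lymphoid cells had 22.9 and 14.2 CPM and macrophages 14.8 and 8.18 CPM, and both log2 intervals spanned 0 (-1.57 to 0.25 and -2.20 to 0.31). Stromal cells had 17 and 5 UMIs. In muscle cells Tgtp1 had 0 UMIs in both libraries, which allows up to 4.09 CPM in control and 1.88 in cKO.

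Among the GBPs, Gbp2, which is recruited to parasite vacuoles, was far lower in cKO dendritic cells and within 1.5-fold between the libraries in 4 other classes, though not under every alternative. In dendritic cells it had 950.0 CPM in control and 70.0 in cKO, 13.6-fold lower (11.2 to 16.6), with 115 of the 486 control UMIs in 1 cell, and the log2 difference of -3.76 was -3.14 with every cell that had a Flt3 UMI. In macrophages it had 321 and 240.3 CPM, 1.34-fold lower (1.15 to 1.56), and in stromal cells 36.4 and 26.0 CPM, 1.40-fold lower (1.22 to 1.61). Lymphoid cells stood between, with 152 and 68.5 CPM. The epithelial levels were 88.1 and 67.0 CPM, 1.31-fold lower (1.16 to 1.50). That epithelial difference turned to 0.27 on the log2 scale when each cell had equal weight and to 0.73 when cell-free RNA was subtracted, so its direction depends on the processing. Muscle cells had 57.2 and 40.2 CPM, with an interval on the log2 scale from -1.10 to 0.09, and -1.66 with at least 2 gate UMIs.

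Gbp5, which promotes assembly of the NLRP3 inflammasome, was lower in dendritic, lymphoid, stromal and epithelial cells of cKO, and its direction in macrophages and muscle cells rested on single cells. Dendritic cells had 373 CPM in control and 40.6 in cKO, 9.19-fold lower (7.03 to 12.1), a log2 difference of -3.20 that thinning moved to -2.38. Lymphoid cells had 57.9 and 7.33 CPM, 7.90-fold lower (-2.98 on the log2 scale, and -1.72 with every cell that had a gate UMI), and stromal cells 9.66 and 1.14 CPM, 8.46-fold lower. In macrophages the level was 114.6 CPM in control and 151.4 in cKO, 1.32-fold higher (1.07 to 1.64). A single cKO macrophage held 45 of the 148 Gbp5 UMIs there. Without the cell with the most Gbp5 UMIs in each library the macrophage levels were 103.9 and 107.7 CPM, a log2 difference of 0.05. The macrophage difference was below 0 under 4 of 14 alternatives, down to -0.24. In muscle cells all 24 control UMIs of Gbp5 (32.7 CPM) came from 1 of 289 cells, while the 11 cKO UMIs (6.90 CPM) came from 8 of 535 cells. Without that cell control had 0 UMIs, so no lower level in cKO is left there. Epithelial cells had 11.4 and 4.91 CPM, a log2 difference of -1.22 that ran from -3.55 with 2 further markers to -0.67 with cells weighted equally.

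Gbp3 and Gbp7, neighbours in the chromosome 3 cluster, were lower in cKO dendritic cells by sizes that depended on the processing. Gbp3 had 127 CPM there in control and 6.17 in cKO, 20.6-fold lower (11.02 to 41.9), a log2 difference of -4.36 that was -3.30 with every cell that had a Flt3 UMI. Gbp7 had 148.6 and 14.4 CPM, 10.3-fold lower (6.61 to 16.5), a log2 difference of -3.37 that thinning moved to -2.09 (95.2 and 22.4 CPM). In stromal cells Gbp3 had 16.5 and 5.55 CPM and Gbp7 15.5 and 4.13 CPM, where thinning moved Gbp7 from -1.90 to -2.70. In lymphoid cells Gbp7 had 184.5 and 70.2 CPM, 2.63-fold lower, and Gbp3 59.2 and 23.3 CPM, 2.55-fold lower. Thinning moved these log2 differences from -1.39 to -0.47 and from -1.35 to -0.73. In macrophages Gbp7 had 99.7 CPM in control and 71.6 in cKO, and Gbp3 82.7 and 62.4 CPM with a log2 interval from -0.86 to 0.03. Without the cell with the most Gbp3 UMIs the cKO macrophage level of Gbp3 was 39.7 CPM, since that cell held 23 of 61 UMIs, and the log2 difference was -0.94 in place of -0.41. In epithelial cells Gbp3 had 35.5 and 10.1 CPM, 3.52-fold lower, and Gbp7 had 30.4 and 15.2 CPM, 1.997-fold lower. The Gbp7 value there, -0.998 on the log2 scale, turned to 0.28 after thinning and to -3.24 when cell-free RNA was subtracted. Gbp7 overlaps Gm43802 on the same strand over 637 bases.

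The IRG and GBP families differed in how their sums compared between the libraries. In macrophages the 6 IRGs summed to 1335 CPM in control and 379 in cKO, 3.52-fold lower (3.15 to 3.93), while the 4 GBPs summed to 618 and 526 CPM, 1.18-fold lower (1.06 to 1.31). In stromal cells the IRGs had 161 and 20.98 CPM, 7.68-fold lower, and the GBPs 78.0 and 36.9 CPM, 2.12-fold lower. In epithelial cells the values were 5.199-fold lower for IRGs and 1.70-fold lower for GBPs. Dendritic cells had the opposite order, with GBPs at 1599 and 131 CPM, 12.2-fold lower, and IRGs at 528 and 73.0 CPM, 7.23-fold lower. The dendritic GBP log2 difference of -3.61 was -2.92 with every cell that had a Flt3 UMI and -2.95 after thinning, beside -2.53 and -2.56 for the IRGs. The counting intervals of the families did not overlap in these 4 classes. In lymphoid cells (2.86-fold for IRGs, 2.68-fold for GBPs) and muscle cells (2.17-fold and 1.98-fold) they overlapped. With every cell that had an Actg2 UMI the muscle log2 differences were -2.77 for IRGs (291 and 42.8 CPM) and -1.57 for GBPs, and thinning gave -0.38 for IRGs. In muscle, 1 control cell held 52 of the 93 GBP UMIs, and without the cell with the most GBP UMIs in each library the GBP levels were 56.8 and 51.6 CPM, a log2 difference of -0.14. With cell-free RNA subtracted the epithelial log2 differences were -4.78 for IRGs (195.4 and 7.13 CPM) and -0.0925 for GBPs (169 and 159 CPM). Thinning moved the epithelial IRG difference from -2.38 to -1.39 and the stromal one from -2.94 to -3.41. The GBPs of macrophages moved from -0.23 to -0.81 after thinning. Iigp1 makes up much of the macrophage IRG sum, and without it the other 9 members of both families together were 1.44-fold lower there (1.33 to 1.58). In stromal cells Iigp1 held 696 of the 1302 control IRG UMIs, and Gbp2 held 661 of the 936 cKO GBP UMIs. Gbp2 also held 273 of the 396 cKO GBP UMIs in epithelial cells. The other stromal GBPs were 2.97-fold to 8.46-fold lower, and Irgm1, Irgm2 and Igtp 4.06-fold to 6.82-fold lower. The stromal and epithelial family differences therefore lean on single genes.

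**Figure D3:**
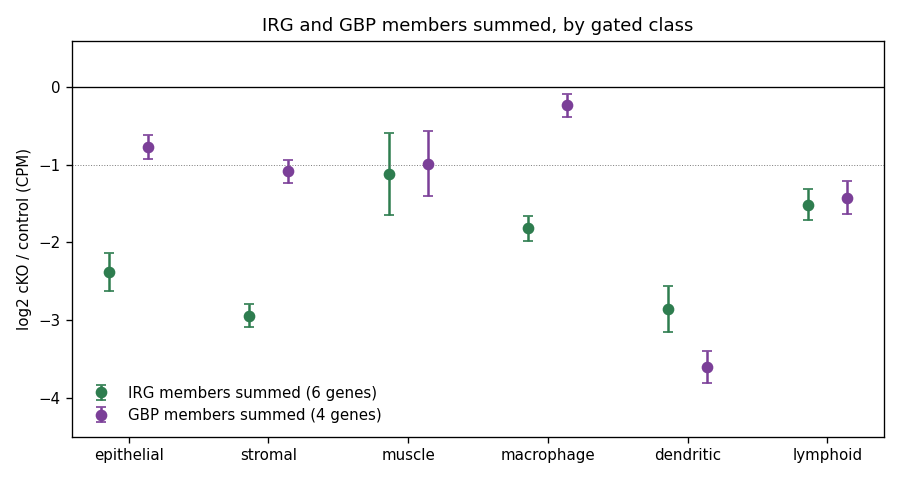
Log2 ratio of cKO over control of the summed CPM of the 6 IRG members (green) and the 4 GBP members (purple) in each class, with 95% counting intervals. IRGs lie below GBPs in epithelial, stromal and macrophage cells, and above them in dendritic cells.

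Most cells of 4 classes had a UMI of some member at full depth, and fewer did at equal depth. To compare cells at equal depth, each was thinned to 1000 UMIs and shallower cells were left out (at most 94 in any of the 6 classes of a library). In control macrophages 44.0% of 225 cells then had a UMI of any member (exact binomial interval 37.4 to 50.8), against 29.4% of 109 cells in cKO (21.02 to 38.85). Unthinned shares were 67.5% and 60.9%. In dendritic cells the thinned shares were 47.6% and 21.6% (unthinned 81.0% and 62.7%), and in lymphoid cells 39.9% and 23.1% (72.3% and 64.9%). In epithelial cells they were 22.3% and 14.8% (62.85% and 62.2%), in stromal cells 9.79% and 3.92% (36.8% and 31.6%), and in muscle cells 9.58% and 7.71% (18.3% and 14.8%). A cell without a UMI after thinning may still express a member. Cells with 3 or more different members had a lower share in cKO in macrophage, dendritic, lymphoid and stromal cells. In muscle they were 1 of 240 cells in control and 0 of 441 in cKO, too few to compare. They made up 46 of 225 macrophages in control (20.4%) and 7 of 109 in cKO (6.42%), 9 of 42 dendritic cells (21.4%) and 1 of 134 (0.746%), and 13 of 153 lymphoid cells (8.50%) and 5 of 424 (1.18%). In stromal cells they were 15 of 613 in control and 0 of 1453 in cKO. In epithelial cells they were 21 of 954 in control (2.20%) and 0 of 135 in cKO. The exact binomial interval of 0 of 135 reaches 2.70%, so no lower share is read there.

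**Figure D4:**
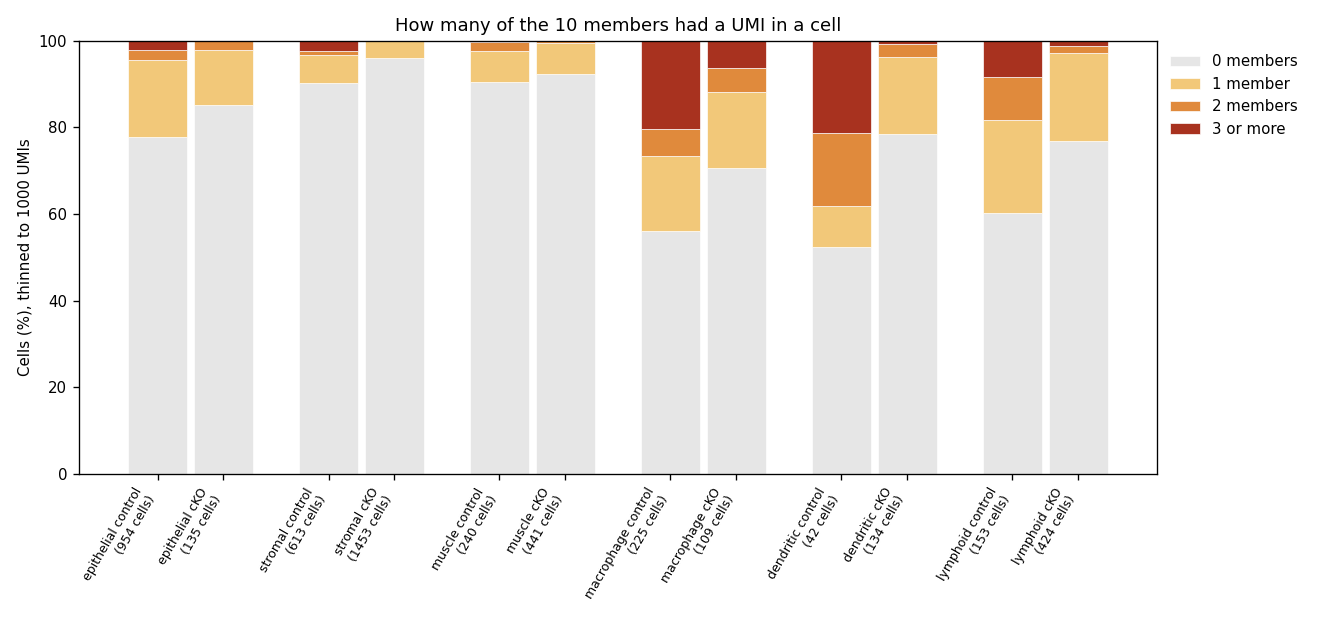
Share of cells (%) with UMIs of 0, 1, 2 or 3 or more of the 10 members, after thinning each cell to 1000 UMIs, by class and library with the number of cells. The dark red share is 20.4% and 6.42% in macrophages and 21.4% and 0.746% in dendritic cells, control and cKO.

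Control cells with an Iigp1 UMI had more of the other 9 members, with intervals apart, in stromal, macrophage, epithelial and lymphoid cells. After thinning, the 26 control stromal cells with an Iigp1 UMI had the other 9 at 1962 CPM (1460 to 2579), and the 587 without it at 83.5 CPM (61.8 to 110.4). In control macrophages the values were 2746 CPM in 63 cells with Iigp1 and 420 CPM in 162 without. Epithelial cells of control had 1000 CPM in 19 cells with Iigp1 and 299.5 in 935 without, and lymphoid cells 2750 CPM in 8 and 793 in 145. In muscle and dendritic cells of control, with 5 and 1 such cells, the intervals overlapped. A higher level was also found in cKO macrophages, with 2818 CPM in 11 cells and 306 in 98, and in cKO lymphoid cells, with 1250 CPM (405.9 to 2917) in 4 cells and 290.5 (241 to 347) in 420. In cKO stromal cells the 7 cells with Iigp1 had 0 UMIs of the other 9, which allows up to 429 CPM at 3 counts. The 1446 without it stood at 40.1 CPM, so a higher level up to that limit could not be seen. The limit lies below the 1962 CPM of the control stromal cells with Iigp1. The 1 epithelial, 3 muscle and 1 dendritic cells of cKO with Iigp1 also had 0 UMIs of the other 9.

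Stromal cells with Cxcl10 and macrophages with Cxcl9, in both libraries, and control epithelial cells with Ifnb1 had more of the members than the other cells of their class. Cxcl10 encodes a chemokine induced by interferons, and it was itself lower in cKO stromal cells (257.6 and 29.02 CPM), so cells split by it are not compared between the libraries. Control stromal cells with a Cxcl10 UMI were 96 of 623 (15.4%), and they held 69.7% of the members' UMIs in the class. Their member level was 1144 CPM, against 85.0 CPM in the other 527, at median depths of 11200 and 12041 UMIs. In cKO the 125 stromal cells with Cxcl10 had 180.3 CPM and the other 1339 had 44.9 CPM. In control the IRGs stood at 769 CPM in cells with Cxcl10 and 57.5 CPM in those without, and the GBPs at 375 and 27.4 CPM.

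Ifnb1, the gene for interferon beta, was found in 79 of 961 control epithelial cells and in 0 of 135 of cKO. Those 79 cells had the members at 734 CPM and the other 882 at 286 CPM, and they were deeper, with medians of 17602 and 5770 UMIs. The cells with Ifnb1 held 32.3% of the members' UMIs in control epithelium. In macrophages the split was made by Cxcl9, a chemokine induced mainly by interferon gamma. The 18 control macrophages with Cxcl9 had 5823 CPM and the other 210 had 1631 CPM, while in cKO 4 cells had 4073 CPM and 106 had 679 CPM. Cells with Cxcl9 were deeper, with medians of 8424 and 7754 UMIs in control and 16990 and 7992 in cKO.

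Other genes of the interferon system were counted from lists made with earlier results of these data in view, so nothing particular to a list is read from its count. Of all measured genes, 9.44% were past 2-fold lower in epithelial, 6.88% in stromal, 5.24% in dendritic, 3.17% in lymphoid, 4.63% in macrophage and 3.63% in muscle cells, and 29.7%, 5.97%, 18.0%, 9.17%, 10.6% and 8.43% were past 2-fold higher. Of 14 further interferon-inducible GTPase genes present in the files, mostly IRGs and GBPs, 7 of 9 measured were past 2-fold lower in cKO epithelial cells, 5 of 6 in stromal, 4 of 5 in dendritic, 5 of 6 in lymphoid, 4 of 9 in macrophage and 0 of 1 in muscle cells, and none was past 2-fold higher. Gbp9 had a log2 difference of -3.11 in epithelial and -4.03 in stromal cells, and Gbp6 of -2.54 in stromal cells and 0.37 in macrophages (-0.16 to 0.89). Of 15 antiviral targets of type I interferon, all 15 were past 2-fold lower in dendritic cells, 14 of 15 in epithelial, 12 of 14 in stromal, 9 of 10 in muscle, 10 of 11 in lymphoid and 8 of 15 in macrophage cells, and none was past 2-fold higher. Rsad2, which encodes the antiviral protein viperin, stood at 431.5 and 10.3 CPM in epithelial cells and at 5484 and 2163 CPM in macrophages. The median log2 difference of this list was -4.13 in dendritic and -1.11 in macrophage cells. Of targets that favour interferon gamma, 4 of 8 were past 2-fold lower in epithelial, stromal and dendritic cells, 3 of 7 in lymphoid, 2 of 9 in macrophage and 0 of 4 in muscle cells, and 2 were past 2-fold higher in each of lymphoid and muscle cells, and none in the others. Cxcl9 stood at 250.2 and 22.6 CPM in dendritic cells and at 111.9 and 93.1 CPM in macrophages. H2-Aa, an MHC class II gene, was among the higher ones in lymphoid cells, at 4.04 and 162 CPM, where the dendritic marker list was also higher in cKO.

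Most receptors were within 2-fold, and of 7 ligand genes 4 were measured in epithelial cells, 1 in lymphoid cells and none in the others. In epithelial cells 2 of the 4 ligands were past 2-fold lower. Ifnb1 had 889 UMIs (51.3 CPM) in control and 0 in cKO, at least 69.6-fold lower, and Ifnl3, an interferon lambda, had 53 and 0 UMIs, at least 4.15-fold lower, both against a floor of 3 counts. Ifnl2 had 24 and 0 UMIs, and Ifne 5.82 and 6.63 CPM. Of 5 or 6 measured receptor genes per class, 1 was past 2-fold lower in epithelial cells (Ifnlr1, the receptor of interferon lambda, with 10.5 and 2.70 CPM), and 1 each was past 2-fold higher in muscle cells (Ifngr1) and macrophages (Ifngr2). Ifngr1, which binds interferon gamma, had 130.0 CPM in control and 163 in cKO epithelial cells, and 42.2 and 167.6 CPM in muscle cells. Ifngr2, its signalling partner, had 95.5 and 200.4 CPM in macrophages. Ifng had 6 UMIs in control and 18 in cKO lymphoid cells (8.08 and 7.76 CPM), too few for more than a wide interval (log2 -1.45 to 1.56). Under the minimum of 20 UMIs, Ifng had 0 UMIs in control and 12 in cKO epithelial cells, at least 17.0-fold higher against the floor, 4 and 15 in stromal cells, 0 and 5 in muscle cells and 0 and 4 in dendritic cells. The lymphoid markers were also higher in cKO in epithelial (5.305 and 41.5 CPM), muscle (13.6 and 44.6) and dendritic cells (3.91 and 70.5). In stromal cells they stood at 6.32 and 6.61 CPM. Whether these Ifng UMIs came from lymphoid cells was not tested.

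Transcription factors of the pathway stood between. Irf7, which amplifies type I interferon, had log2 differences of -4.13 in dendritic, -3.74 in epithelial and -0.64 in macrophage cells. Irf1, a factor induced by interferon gamma, had -0.66 in dendritic cells and 0.26 in macrophages (-0.10 to 0.62). Irf8, a factor of myeloid cells, was higher in cKO in all 6 classes, from 0.80 in lymphoid to 4.20 in epithelial cells. Of 14 such genes, 9 of 14 measured were past 2-fold lower in epithelial, 5 of 13 in stromal, 6 of 13 in dendritic, 4 of 11 in muscle, 4 of 13 in lymphoid and 2 of 14 in macrophage cells. Past 2-fold higher was 1 each in epithelial, stromal, muscle and dendritic cells, Irf8 in all 4.

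Partners of the GTPases in autophagy and the inflammasome had median log2 differences near 0 in 5 classes. Of 15 or 16 measured per class in epithelial, stromal, macrophage, dendritic and lymphoid cells, at most 3 were past 2-fold lower and at most 2 higher. The counts were 1 of 15 lower and 1 higher in epithelial, 1 and 1 of 16 in stromal, 0 and 2 of 16 in macrophage, 3 and 2 of 16 in dendritic and 2 and 0 of 15 in lymphoid cells. In muscle cells 1 of 13 was lower and 4 were higher. Rnf213, a large interferon-induced ubiquitin ligase, had log2 differences of -2.71 in epithelial, -2.24 in stromal and -2.43 in dendritic cells. Casp4, the sensor of cytosolic lipopolysaccharide (caspase-11), had -1.93 in dendritic cells and 0.66 in stromal cells. Nlrp3, which forms the inflammasome, had 633 CPM in control and 940 in cKO macrophages. The median of this list lay between -0.19 and -0.03 on the log2 scale in those 5 classes (median of all genes 0.45 in epithelial, -0.02 in stromal, 0.18 in macrophage, 0.30 in dendritic and 0.16 in lymphoid cells) and was 0.38 in muscle cells (all genes 0.12), where the erythroid, lymphatic endothelial and dendritic markers were also higher in cKO.

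Over the 12 class sums (6 classes in 2 libraries), the genes outside the members whose log2(CPM + 1) followed the members' sum most closely among 11487 genes were Slfn8 (Pearson r = 0.97), Parp14 (0.96), Ifi47 (0.95), Ddx60 (0.95), Herc6 (0.95) and Daxx (0.95). Ifi47 is another IRG GTPase. Within the members, the correlation of each with the sum of the other 9 ranged from 0.68 for Iigp1 to 0.95 for Gbp3. These are descriptions over sums that share cells, depth and a library, and have no p-value.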

How the data were processed

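The deposited files held raw UMI counts per gene and barcode for 2 libraries, 1 per group, unfiltered for cells. Per the file headers the matrices come from Cell Ranger 4, while the submitters' processing notes name Cell Ranger 6.1.1 and mm10. Annotation and settings are not given in the sources used here. The libraries held 45035801 UMIs (control) and 57145553 UMIs (cKO). Uteri of 3 mice were pooled per group, per the study's design text.

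From the counts, cells with at least 500 genes and at most 20% mitochondrial UMIs were kept, and 283 control and 46 cKO barcodes were over the mitochondrial limit. Cells with UMIs of several gates (170 and 249) or of no gate (1185 and 1896) entered no class. Doublets were otherwise kept, and a score against simulated doublets marked 20 (0.548%) and 71 (1.43%) cells, left out as an alternative. UMIs were summed per class and library, divided by the class total (CPM), and compared as log2 ratios, with a floor of 3 counts for 0. With 1 library per group there is no test, and intervals cover counting error only. The members, lists and classes were chosen with earlier results of these data known. The named genes are all 10 members, list genes past 2-fold or needed as examples of a role, and the 6 most correlated genes. Python 3.11.15, NumPy 2.4.6, SciPy 1.17.1, pandas 2.3.3, scikit-learn 1.9.0 and matplotlib 3.10.9 were used, and the ratio code was tested on simulated data. Gene positions come from GENCODE on GRCm38.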

Additional observations from a re-analysis of the deposited data

Results flagged for a closer look

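Gbp5 was higher in cKO macrophages, by 0.40 on the log2 scale (0.09 to 0.71), and lower in cKO in epithelial, stromal, muscle, dendritic and lymphoid cells, with intervals that lay off 0. It was singled out for these opposite directions, and the difference between classes was not tested, as each class had 1 library per group. In macrophages 1 cell held 30.4% of the cKO Gbp5 UMIs. The macrophage value was -0.0855 without the cell with the most member UMIs in each library, -0.24 with every cell that had a C1qa UMI, -0.0418 with cells weighted equally and -0.18 after thinning to 1000 UMIs. It was between 0.16 and 0.46 under the other 9 settings, and 0.05 without the cell with the most Gbp5 UMIs in each library, a setting chosen after seeing the data. In muscle cells all 24 control UMIs of Gbp5 came from 1 of 289 cells, so the lower level there rests on that cell: the share of cells with a UMI was 0.346% in control and 1.50% in cKO.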

How the results depend on the processing

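The summed level of the members stayed lower in cKO in all 6 classes under all 13 alternatives, but its size moved. With cells in every class whose gate had a UMI, the log2 difference was -2.80 in dendritic, -1.32 in lymphoid, -1.39 in macrophage and -2.20 in muscle cells. With at least 2 gate UMIs it was -3.18, -1.05 and -2.13 in dendritic, lymphoid and muscle cells. Thinned to 1000 UMIs it was -2.83 in dendritic, -0.88 in epithelial, -1.67 in lymphoid, -1.31 in macrophage, -0.58 in muscle and -2.44 in stromal cells. Without the cell with the most member UMIs it was -1.39 in macrophage, -0.55 in muscle and -1.92 in stromal cells. With cells weighted equally it was -0.73 in epithelial, -1.33 in macrophage and -2.26 in stromal cells. In epithelial cells it was -1.67 with 2 further markers and -1.14 after subtraction of cell-free RNA. TMM scaling gave -3.58, -2.004 and -1.35 in dendritic, epithelial and macrophage cells, and scaling to the median of all genes gave -3.68, -1.87, -1.63 and -1.29 in dendritic, epithelial, lymphoid and macrophage cells. The cause of these shifts was not tested.

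Of 794 values of single members, 85 left their counting interval, and 10 whose interval lay off 0 changed direction. Alternatives that left a member at 0 in a library gave no value and are not among the 794. Gbp5 in muscle cells without the control cell that held all its UMIs is such a case, so the counts can understate the changes. Beyond these 10, there were 4 values, all in muscle cells with intervals that spanned 0, that took the other sign (Gbp3, Irgm2 and Tgtp2). In epithelial cells Gbp2 turned to 0.27 with cells weighted equally, 0.0137 thinned and 0.73 with cell-free RNA subtracted, Gbp7 to 0.28 and Igtp to 0.0841 thinned, and Irgm2 to 0.23 with cells weighted equally. In macrophages Gbp5 turned to -0.24, -0.0418, -0.18 and -0.0855, as given above. In dendritic cells the GBPs, and in epithelial, stromal and macrophage cells the IRGs, had the lower ratio of the families under every alternative run. None of these left out Gbp2 or Iigp1. Leaving out the cell with the most UMIs of a member or family, and the alternatives of the family sums, were added after seeing the data.

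Without the minimum of 20 UMIs, genes past 2-fold higher numbered 9463 in epithelial, 3487 in macrophage and 1294 in muscle cells, in place of 3905, 816 and 745. Genes past 2-fold lower numbered 4220 in dendritic, 3629 in lymphoid, 871 in macrophage, 3697 in muscle and 5160 in stromal cells, in place of 403, 296, 358, 321 and 929. Many of these have 0 UMIs in a library and stand at the floor of 3 counts. No paired analysis was possible because each group was 1 library. The 42 control dendritic cells and the shallow muscle cells, with medians of 1504 and 1570 UMIs, limit the values there.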
